A study of Mus musculus with 2 samples.

Results

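Nucleoporins and nuclear transport receptors were described in RAW264.7 cells, a mouse macrophage-like line that forms osteoclasts when given the cytokine RANKL. Members were chosen by gene symbol. Symbols beginning with Nup, Kpna, Ipo, Xpo or Tnpo in the forms used for this machinery were taken, with Kpnb1, Rae1, Tpr, Pom121, Aaas, Seh1l, Ranbp2, Ndc1, Ran, Rangap1, Rcc1 and Cse1l. The rule found 54 of the 18987 genes in the deposited table. The set was put forward with results of these data known, so its counts and medians below are descriptions and not tests. A control shRNA was used for 1 library (79399680 counts), and the second (119350322 counts) came from cells carrying an shRNA to Cpeb4, the gene for an RNA-binding protein of the cytoplasmic polyadenylation element-binding family. Cells of both kinds were plated at a density of 7500 per cm2, RANKL was added 24 h after plating at 100 ng/ml, and collection was on day 3 by the series title. Separate cultures or clones are not named in the labels. With 1 library per group there is no replicate spread and no test, and every difference below compares these libraries only.

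The nuclear pore complex is the channel through the nuclear envelope. Stacked outer and inner rings form its scaffold, proteins anchored in the membrane hold it in place, and nucleoporins rich in phenylalanine-glycine repeats fill the channel. Filaments reach into the cytoplasm and a basket into the nucleus. Transport receptors of the karyopherin family carry cargo through this channel: importins bring proteins in, exportins take proteins and RNA out, and the GTPase Ran sets the direction by loading and releasing their cargo. In macrophages and osteoclasts this route carries transcription factors such as NF-kB and NFATc1 into the nucleus. Animal cells take their nuclear envelope apart and rebuild it, pores included, at each mitosis.

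The targeted gene Cpeb4 had 25270 counts with the control shRNA and 13491 with its own shRNA, a log2 ratio of -1.73 (95% counting interval -1.76 to -1.70). Markers of cell states differed too. The 6 cycling markers, among them Mki67 and Cdk1, summed to 64.7 CPM (library-scaled counts) with the control shRNA and 1269 CPM with the Cpeb4 shRNA. All 6 were at least 2-fold higher there, beside 14.6% of the 12086 genes past the filter. The 8 osteoclast markers summed to 47616 and 9668 CPM, all 8 at least 2-fold lower, beside 11.8% of those genes. Macrophage markers, of which 5 of 7 passed the filter, summed to 3980 and 2425 CPM, with 2 of the 5 above 0 (Lyz2 and Cd14) and 3 below (Csf1r, Cd68 and Itgam). Of 6 fibroblast and osteoblast markers 2 were in the table, at a summed 0.41 and 0.19 CPM. Of 5 lymphoid and 6 granulocyte or mast cell markers 0 were in it. Of 5 dendritic cell markers 3 passed the filter, and the 4 in the table summed to 42.6 and 6.21 CPM. The cycling and osteoclast markers thus differed between the same libraries that every result below compares. Their part in those results was not tested. In bulk RNA, more cells of a kind and more RNA per cell cannot be told apart.

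Genes of this machinery were mostly higher with the Cpeb4 shRNA. Of 54 members 53 averaged 1 CPM or more across the libraries, the filter used throughout. The member left out was Kpna7, an importin alpha gene with 1 count in each library. Of the 53, 20 were at least 2-fold higher (37.7%), beside 14.6% of the 12086 genes past the filter. None of the 53 (0) was at least 2-fold lower, beside 11.8% of all genes. A log2 ratio above 0 was found for 50 of the 53, beside 52.5% of all genes. That number was 48 to 52 over the other scalings, thinning and filters, a range added after seeing the data. At 1.5-fold 34 members were higher, beside 26.4% of all genes, and at 4-fold 1 was, beside 4.82%. The median log2 ratio was 0.75, a 1.68-fold level, beside 0.05 for all genes. Of all counts the members made up 0.425% in the control library (exact binomial interval 0.423 to 0.426%) and 0.811% with the Cpeb4 shRNA (0.810 to 0.813%), a share 1.91 times as large. Closest to the 2-fold line were Nup62 just above it (2.04-fold) and Cse1l and Ipo7 just below (both 1.95-fold).

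**Figure D1:**
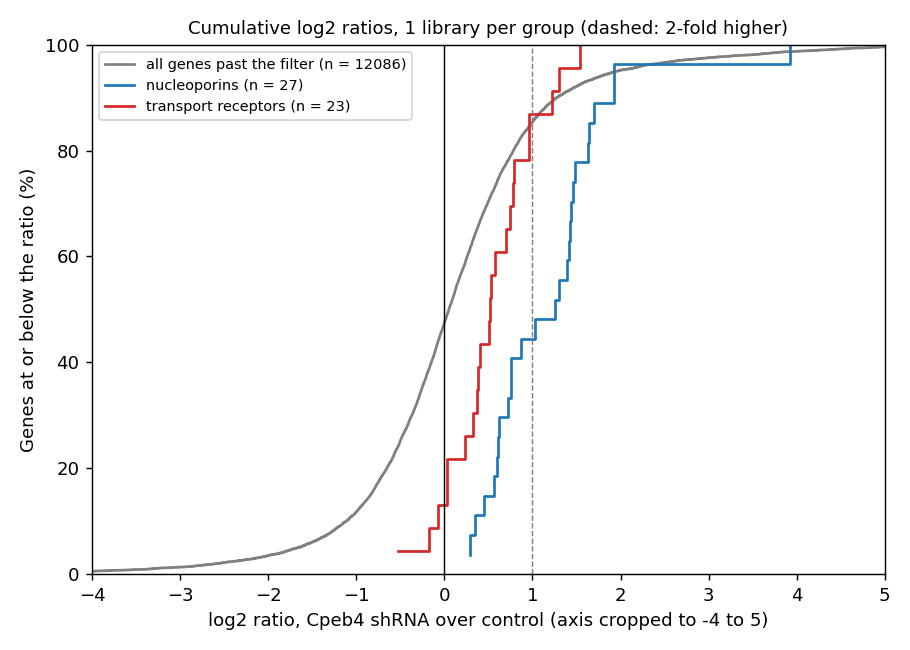
Cumulative share of genes (vertical axis, percent) at or below each log2 ratio of Cpeb4 shRNA over control (horizontal axis), for all 12086 genes past the filter, 27 nucleoporins and 23 transport receptors, from 1 library per group. The nucleoporin line starts at 0.29 and has its median at 1.26, the receptor line has its median at 0.51, and the line of all genes has its median at 0.05.

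All 27 nucleoporins had a ratio above 0, beside 52.5% of all genes. Their median was 1.26, and 15 were at least 2-fold higher (55.6%, beside 14.6% of all genes). Of 23 transport receptors 3 were at least 2-fold higher (13.0%), a share near the 14.6% of all genes, with a median of 0.51. No test of this contrast was made. The median half-width of the counting interval over the members was 0.05 log2 units.

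**Figure D2:**
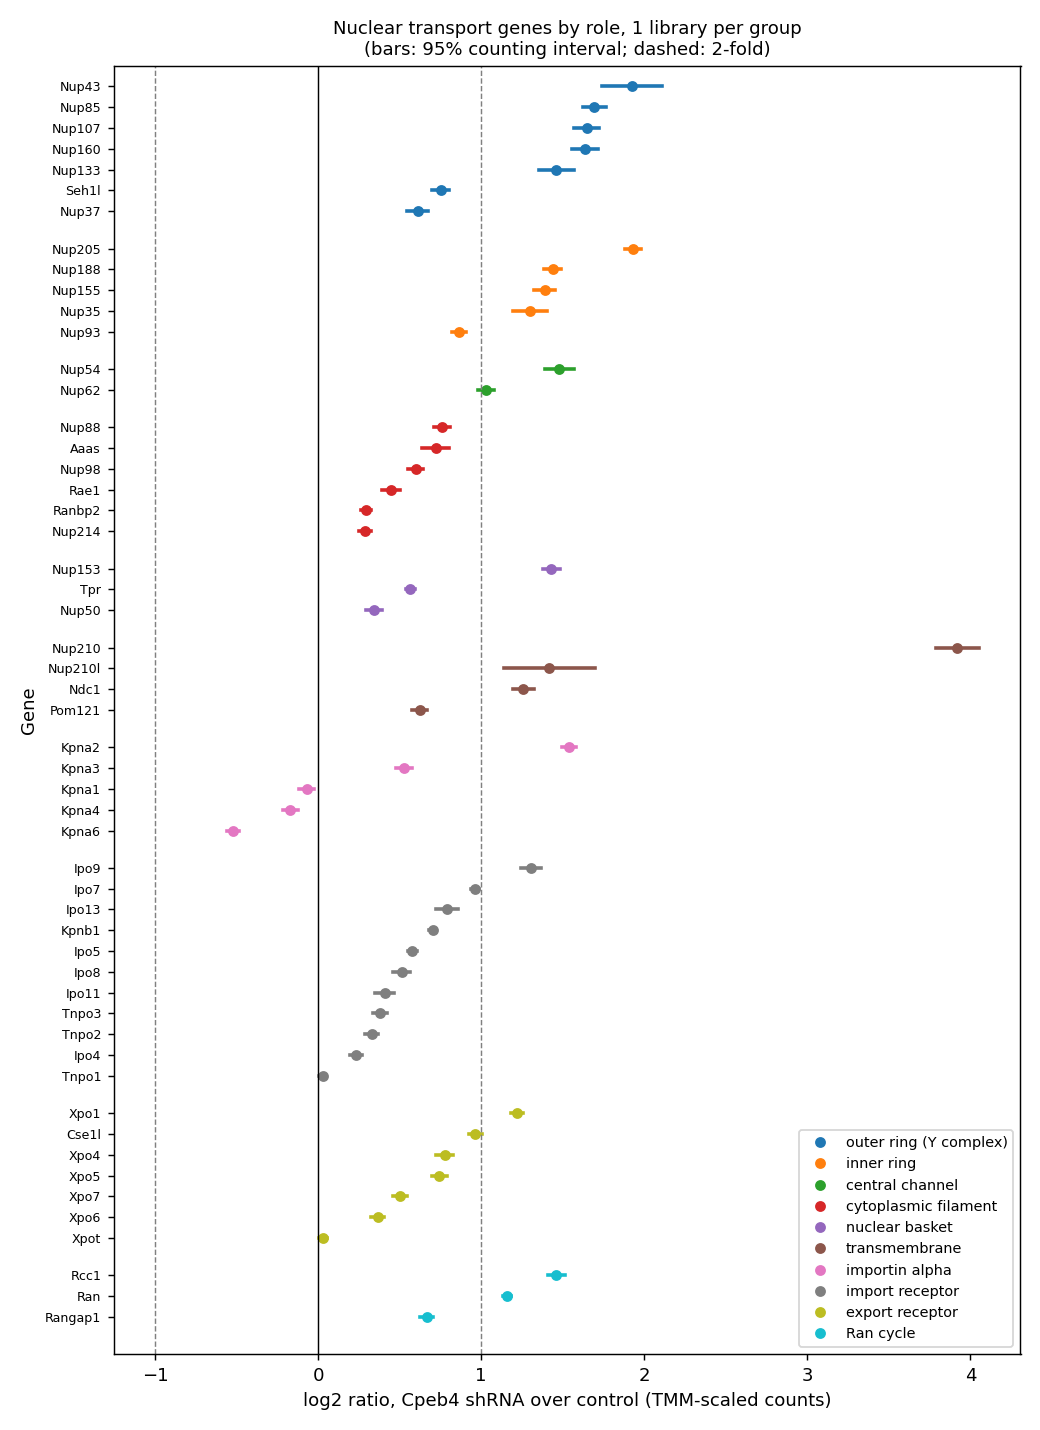
Log2 ratio of Cpeb4 shRNA over control (horizontal axis) for each of the 53 members past the filter (vertical axis), coloured by role; points are ratios of TMM-scaled counts, bars the 95% counting interval, dashed lines 2-fold, from 1 library per group. Nup210 stands apart at 3.92, all 6 cytoplasmic filament genes lie between 0.29 and 0.76, and Kpna6, Kpna4 and Kpna1 are the members below 0, the latter pair being above 0 with total-count scaling.

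The outer ring of the pore is built from the Y-shaped Nup107-Nup160 complex, which is also found at kinetochores in mitosis. Of its 7 members 5 were at least 2-fold higher (71.4%, beside 14.6% of all genes), and the median was 1.64. Sec13, a further Y complex subunit outside the symbol rule, was at -0.59. Nup107 had 1617 counts (22.1 CPM) with the control shRNA and 8942 counts (69.1 CPM) with the Cpeb4 shRNA, a log2 ratio of 1.65 (1.57 to 1.72). Nup85, Nup160 and Nup133, which form the arms and stem of the Y with it, had ratios of 1.69, 1.64 and 1.46. These 4 genes thus lay between 1.46 and 1.69. Nup43, a beta-propeller subunit, had the highest ratio, 1.92 (1.74 to 2.11), from 273 and 1829 counts. It overlaps Pcmt1 on the other strand, which had 5465 and 8963 counts, and without a stated strand setting reads of such partners cannot be told apart. Nup37, another beta-propeller subunit, had 2618 and 7065 counts, or 35.7 and 54.6 CPM, a ratio of 0.61. Seh1l, whose protein also serves the nutrient-sensing GATOR2 complex, was at 0.75. The promoter of Nup107 (chr10:117792706-117792955, minus strand, GRCm38.p6) is shown because it holds the NRF1 word that recurs among these genes. In it and in the promoters below, letters run 5′ to 3′ over the 250 bases before the RefSeq start site, and capitals mark words of E2F, CHR, CCAAT or NRF1 as spelled out further on.
Nup107: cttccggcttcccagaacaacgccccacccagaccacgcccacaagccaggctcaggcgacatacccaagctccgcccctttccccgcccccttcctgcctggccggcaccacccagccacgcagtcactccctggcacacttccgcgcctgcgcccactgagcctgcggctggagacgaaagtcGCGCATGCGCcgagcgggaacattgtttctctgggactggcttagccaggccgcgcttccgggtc
The capitals in it mark 1 NRF1 word, beginning 65 bases before the start site.

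The inner ring, which joins the scaffold to the membrane and to the channel, showed differences of like size. Of its 5 members 4 were at least 2-fold higher (80%, beside 14.6% of all genes), with a median of 1.39. Nup205 had 3874 counts (52.9 CPM) with the control shRNA and 26081 counts (201.6 CPM) with the Cpeb4 shRNA. Its ratio of 1.93 (1.88 to 1.98) was the second highest of all members. Nup188, its paralog, was at 1.44, and Nup155, which binds the membrane, at 1.39. Nup35 was at 1.30 from 934 and 4065 counts, and shares its strand with the overlapping gene Dusp19 (711 and 1587 counts). Nup93, the hub that holds the ring together, had the smallest ratio, 0.87 (0.82 to 0.91), from 5563 and 17909 counts. Both members of the central channel were above 2-fold, beside 14.6% of all genes. With upper-quartile or reference-gene scaling or after thinning 1 of them was, since these put Nup62 just below. Nup54 had 1257 and 6188 counts, a ratio of 1.48 (1.39 to 1.57). Nup62, its partner in the channel, had 4443 and 16017 counts, a ratio of 1.03 (0.98 to 1.08), whose interval reaches below 2-fold. Nup62 overlaps Atf5 on the other strand, with 4410 and 3456 counts.

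Membrane-anchored nucleoporins held the largest single difference. Nup210, the large membrane glycoprotein of the pore (ENSMUSG00000030091; mm10 chromosome 6, 91013068 to 91116829, minus strand), had 476 counts (6.50 CPM) with the control shRNA. With the Cpeb4 shRNA it had 12728 counts (98.4 CPM). The log2 ratio was 3.92 (3.79 to 4.05), a 15.1-fold level, and 160th from the top among all 12086 genes. It was the 1 member past 4-fold, to which total-count scaling adds Nup205 (2.16) and Nup43 (2.16), and it overlaps no other annotated gene. Its paralog Nup210l, known from the testis, was low in both libraries, with 132 and 622 counts and a ratio of 1.42 (1.14 to 1.70). Ndc1, which anchors the scaffold in the membrane, was at 1.26, and Pom121, another anchor, was lowest at 0.62 (0.58 to 0.67) from 5292 and 14402 counts. Nup210 made up 0.469% of nucleoporin counts with the control shRNA and 3.73% with the Cpeb4 shRNA. The Nup210 promoter (chr6:91116827-91117076, minus strand, GRCm38.p6) is shown as that of the member with the largest ratio.
Nup210: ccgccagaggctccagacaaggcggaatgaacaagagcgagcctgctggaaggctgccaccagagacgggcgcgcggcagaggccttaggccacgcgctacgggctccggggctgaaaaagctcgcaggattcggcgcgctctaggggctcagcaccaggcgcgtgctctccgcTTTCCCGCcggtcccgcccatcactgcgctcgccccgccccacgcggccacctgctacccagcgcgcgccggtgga
Its capitals mark 1 E2F word, TTTCCCGC, beginning 76 bases before the start site.

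**Figure D3:**
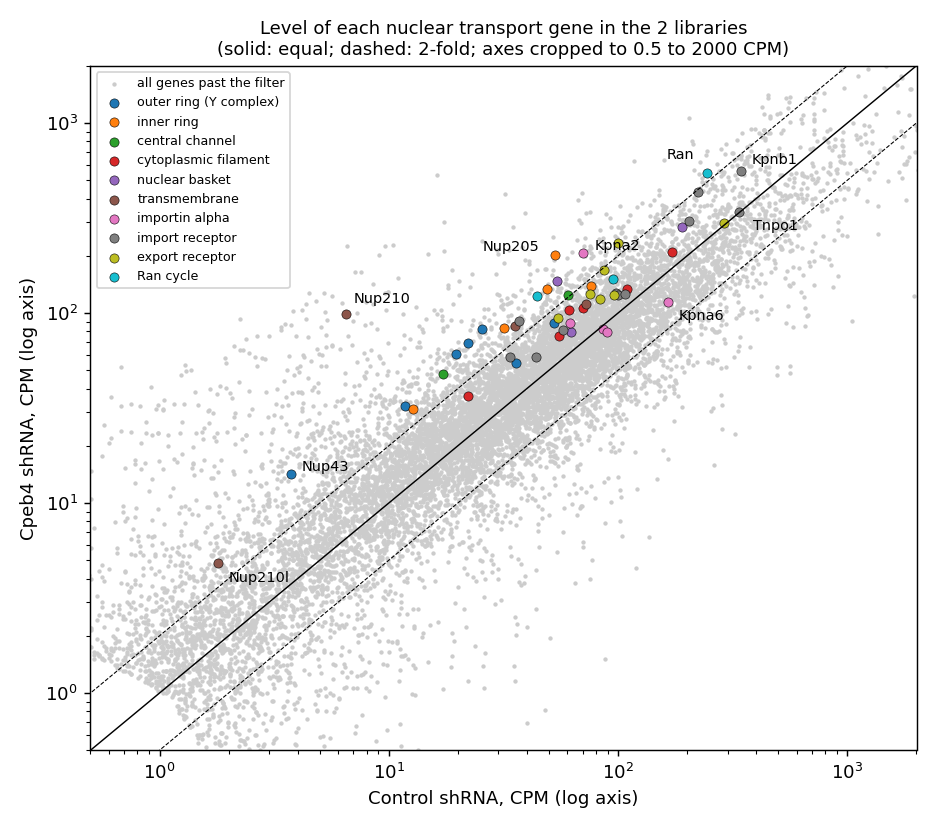
Level of each gene in the control library (horizontal axis, CPM, log scale) and with the Cpeb4 shRNA (vertical axis, CPM, log scale), with the 53 members coloured by role over all genes past the filter in grey; the solid line marks equal levels and the dashed lines 2-fold, and axes are cropped. Nup210 lies at 6.50 and 98.4 CPM, far above the upper dashed line, while Tnpo1 lies near the solid line at 334.9 and 341.5 CPM.

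Ratios of the cytoplasmic filament genes were smaller as a group, with Nup37, Seh1l and Pom121 of other zones in the same range. None (0) of the 6 cytoplasmic filament members reached 2-fold, beside 14.6% of all genes, and their median was 0.52. Nup88, which anchors Nup214 at the cytoplasmic face, was highest at 0.76 (0.71 to 0.81), from 4478 and 13387 counts. It overlaps Rabep1 on the other strand, which had 17158 and 16212 counts. Nup214 had 8043 counts (109.8 CPM) and 17343 counts (134.0 CPM), the smallest ratio of the group at 0.29 (0.25 to 0.33). Ranbp2, the SUMO ligase that forms the filaments and docks RanGAP1, was also at 0.29, a value that is uncertain to the extent that reads were shared with its annotated pseudogenes. Aaas, which encodes ALADIN, was at 0.72. The mRNA export pair Nup98 and Rae1, which also act in the mitotic checkpoint, were at 0.60 and 0.45. Nup98 was counted in this zone alone. The Nup214 promoter (chr2:31974200-31974449, plus strand, GRCm38.p6) is shown as that of a member within 2-fold.
Nup214: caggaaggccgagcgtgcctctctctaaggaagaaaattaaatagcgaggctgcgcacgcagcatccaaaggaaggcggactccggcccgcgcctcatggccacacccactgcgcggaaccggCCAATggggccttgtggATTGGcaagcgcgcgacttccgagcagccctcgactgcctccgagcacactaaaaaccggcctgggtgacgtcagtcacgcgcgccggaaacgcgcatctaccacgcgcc
Its capitals mark a CCAAT box and, 17 bases downstream from first letter to first letter, another on the opposite strand.

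The nuclear basket was mixed. Nup153, which binds lamins and recruits the basket, had 3983 counts (54.4 CPM) and 18976 counts (146.7 CPM), a ratio of 1.43 (1.38 to 1.48). Tpr, the coiled-coil protein that forms the basket's fibres, was at 0.56, from 13945 and 36439 counts. It overlaps Odr4 on the other strand, which had 4325 and 4163 counts. Nup50, which helps release cargo from importin alpha, was lowest at 0.34 (0.29 to 0.39), from 4580 and 10258 counts. The 3 basket genes therefore did not share 1 level of difference.

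Shares within a library do not depend on how the libraries are scaled. Of all nucleoporin counts, the cytoplasmic filament genes took 35.4% in the control library (35.1 to 35.7%) and 25.3% with the Cpeb4 shRNA (25.1 to 25.4%). The inner ring took 16.1% and 22.3%, and the outer ring 12.3% and 15.3%. Membrane nucleoporins took 8.39% and 11.4%, the basket 22.2% and 19.3%, and the central channel 5.62% and 6.52%. Among the members, the scaffold rings made up more, and the cytoplasmic filaments less, of the pore counts in the second of these 2 libraries. The intervals cover counting error only. These shares leave out Sec13, a Y complex subunit outside the symbol rule, with 9431 and 11076 counts. The 7 outer ring members had 12501 and 51978 counts. With Sec13 counted, the outer ring share would be smaller, not larger, in the second library.

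Per kilobase of the longest annotated coding transcript, the levels within the Y complex spanned 13.8-fold in the control library, from Nup37 (28.0 CPM per kb) to Nup133 (2.02 CPM per kb). In the Cpeb4 shRNA library they spanned 7.67-fold, with the same genes at the ends (42.8 and 5.57 CPM per kb). The inner ring spanned 6.36-fold and 4.43-fold, from Nup93 to Nup155 in both libraries. Members that were low in the control library tended to have the larger ratios. Across the 53 members the log2 control CPM and the log2 ratio had a Pearson correlation of -0.64 (Spearman -0.68), a description over genes that share both libraries, and the control level enters both measures.

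Importin alpha genes, whose products bind the classical nuclear localisation signal and pair with importin beta, went in opposite directions. Kpna2 (importin alpha 1; ENSMUSG00000018362; mm10 chromosome 11, 106988629 to 106999541, minus strand) had 5172 counts (70.6 CPM) with the control shRNA and 26596 counts (205.5 CPM) with the Cpeb4 shRNA. Its ratio was 1.54 (1.5 to 1.58), with a processed pseudogene annotated elsewhere that could share its reads. Kpna6 had 12052 counts (164.6 CPM) and 14823 counts (114.6 CPM), a ratio of -0.52 (-0.56 to -0.49), the lowest of all members past the filter. Kpna4 and Kpna1 had ratios of -0.17 and -0.07, which total-count scaling places above 0, and Kpna3 was at 0.53. The median of the 5 was -0.07, or 0.16 with total-count scaling. Kpna2 thus made up 14.9% of importin alpha counts in the control library (14.6 to 15.3%) and 36.0% with the Cpeb4 shRNA (35.7 to 36.4%). Kpna6 made up 34.8% and 20.1%, Kpna4 19.0% and 14.0%, Kpna1 18.2% and 14.4%, and Kpna3 13.0% and 15.5%. Per kilobase Kpna2 was the highest of the 5 in both libraries, at 34.4 and 100.1 CPM per kb. The next were Kpna6 in the control library (28.8 CPM per kb) and Kpna3 with the Cpeb4 shRNA (21.8 CPM per kb). The Kpna2 promoter (chr11:106999526-106999775, minus strand, GRCm38.p6) is shown since Kpna2 is the importin alpha gene above 2-fold.
Kpna2: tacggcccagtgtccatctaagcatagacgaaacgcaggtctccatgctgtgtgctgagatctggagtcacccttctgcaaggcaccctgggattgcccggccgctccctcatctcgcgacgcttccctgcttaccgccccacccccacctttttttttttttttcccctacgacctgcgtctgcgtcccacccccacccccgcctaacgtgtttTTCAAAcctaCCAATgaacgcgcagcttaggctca
Its capitals mark a CHR word on the opposite strand, 35 bases before the start site, and a CCAAT box at 25 bases.

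**Figure D4:**
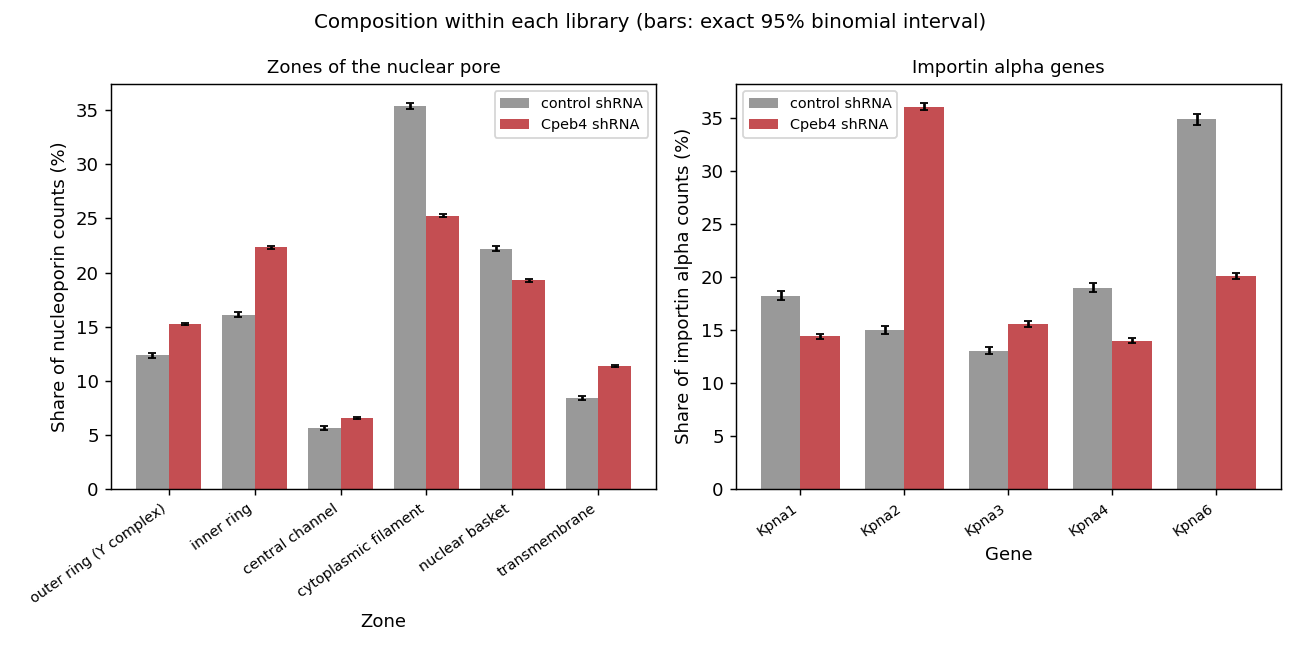
Share of nucleoporin counts taken by each zone of the pore (left) and share of importin alpha counts taken by each gene (right), vertical axes in percent, with grey bars for the control library and red bars for the Cpeb4 shRNA library; error bars are exact 95% binomial intervals, from 1 library per group. The cytoplasmic filament share goes from 35.4 to 25.3%, the Kpna2 share from 14.9 to 36.0% and the Kpna6 share from 34.8 to 20.1%.

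Import receptors of the importin beta family were all 11 above 0, apart from Tnpo1 under the scalings named below, beside 52.5% of all genes. Their median was 0.51. At least 2-fold higher was 1 of them (9.09%, beside 14.6% of all genes). With total-count scaling the number was 3, with Ipo7 and Ipo13 added, beside 20.8% of all genes. Ipo9, an importin for histones and actin, was highest, with 2698 counts (36.8 CPM) and 11766 counts (90.9 CPM) and a ratio of 1.30 (1.24 to 1.36). Ipo7, which imports ribosomal proteins, followed at 0.96, and Ipo13, which works in both directions, at 0.79. Kpnb1, the importin beta that carries importin alpha and its cargo, was the most abundant of them per kb. It had 25215 counts (344.3 CPM) and 72486 counts (560.2 CPM), a ratio of 0.70. Ipo5 was at 0.58, Ipo8 at 0.51 and Ipo11 at 0.41. Tnpo3, which imports splicing factors of the SR family, was at 0.38, and Irf5, overlapping it on the other strand, had 3395 and 16379 counts. Tnpo2 was at 0.33. Ipo4 was at 0.23, and the overlapping Gm49378 had 120 and 3405 counts. Tnpo1, the receptor for proline-tyrosine signals in RNA-binding proteins, was lowest, with 24527 counts (334.9 CPM) and 44186 counts (341.5 CPM). Its ratio was 0.03 (0.01 to 0.05), and it lies below 0 under upper-quartile and reference-gene scaling and after thinning.

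Export receptors were also all 7 above 0, apart from Xpot under the scalings named below, beside 52.5% of all genes. Their median was 0.74. At least 2-fold higher was 1 of them (14.3%, near the 14.6% of all genes). With total-count scaling the number was 3, with Cse1l and Xpo4 added, beside 20.8% of all genes. Xpo1 (CRM1), which exports proteins with leucine-rich signals, had 7342 counts (100.2 CPM) and 30181 counts (233.3 CPM), a ratio of 1.22 (1.18 to 1.26). Cse1l (CAS), which returns importin alpha to the cytoplasm, was next at 0.96. Xpo4 and Xpo5, the latter the exporter of microRNA precursors, were at 0.78 and 0.74, and Xpo7 and Xpo6, the actin exporter, at 0.50 and 0.37. Xpo7 overlaps Dok2, which had 2036 and 10643 counts. Xpot, the tRNA exporter, had 21182 counts (289.2 CPM) and 38275 counts (295.8 CPM), a ratio of 0.03 (0.01 to 0.06) that lies below 0 under upper-quartile and reference-gene scaling. Of the export receptor counts, Xpot took 36.8% with the control shRNA and 25.5% with the Cpeb4 shRNA, and Xpo1 took 12.8% and 20.1%.

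Genes of the Ran cycle were all 3 above 0, beside 52.5% of all genes. Rcc1, the chromatin-bound exchange factor that charges Ran with GTP, had 3246 counts (44.3 CPM) and 15800 counts (122.1 CPM), a ratio of 1.46 (1.41 to 1.52). It shares its strand with the small nucleolar RNA host gene Snhg3 (294 and 1123 counts), and Gm17300 lies on the other strand (372 and 1886 counts). Ran had 17810 counts (243.2 CPM) and 70250 counts (542.9 CPM), a ratio of 1.16 (1.14 to 1.18), and was the most abundant member per kb in both libraries. Rangap1, which triggers GTP hydrolysis on Ran in the cytoplasm, was lowest at 0.67 (0.63 to 0.71), from 6945 and 19472 counts. It overlaps Zc3h7b on the other strand, which had 3989 and 7988 counts. The Ran promoter (chr5:129019906-129020155, plus strand, GRCm38.p6) is shown as a further one with an NRF1 word.
Ran: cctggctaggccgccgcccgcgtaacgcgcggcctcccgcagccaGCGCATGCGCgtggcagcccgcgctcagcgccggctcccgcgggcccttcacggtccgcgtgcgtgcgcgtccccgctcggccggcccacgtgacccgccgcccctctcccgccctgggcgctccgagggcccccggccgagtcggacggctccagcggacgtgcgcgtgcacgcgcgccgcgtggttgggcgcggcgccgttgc
Its capitals mark that word, beginning 205 bases before the start site.

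Promoter sequence was searched over 300 bases (250 before and 50 after the start) on both strands, with 49 promoters of 42 members past the filter found in the RefSeq table. NRF1 is an activator of genes for cell growth and mitochondria, and its palindromic word, the letters in capitals in the Nup107 promoter, was in 5 of the 49 (10.2%), beside 2.27% of the promoters of genes past the filter and 0.971% of all 32851 promoters. The 5 belonged to Nup107, Ran, Nup62, Nup50 and Xpo5. CHR words (TTTGAA), bound by the MuvB complexes that control cell cycle genes, were in 12 (24.5%), beside 12.3% and 17.9%. The E-box CACGTG, which MYC and related factors bind, was in 9 (18.4%), beside 10.3% and 7.15%. No word contains another, though their ends can overlap. CCAAT boxes were in 22 (44.9%), beside 38.5% and 37.4%. Words for ETS factors (CCGGAA) were in 14 (28.6%), beside 29.7% and 14.9%. The E2F words TTTCCCGC, TTTGGCGC, TTTGCCGC and TTTCGCGC were in 2 promoters (4.08%), those of Nup210 and Ipo7, beside 4.18% and 2.26%. CHR words were in 3 of 17 promoters (17.6%) of members at least 2-fold higher and in 9 of 32 (28.1%) of members within 2-fold, and CCAAT boxes in 6 (35.3%) and 16 (50%). NRF1 words were in 3 (17.6%) and 2 (6.25%), E2F words in 1 (5.88%) and 1 (3.12%), E-boxes in 3 (17.6%) and 6 (18.8%), and ETS words in 5 (29.4%) and 9 (28.1%). Promoters of 1 gene can overlap, so the same letters can count more than once. Both Nup37 promoters hold the same CHR, CCAAT and ETS words, and both Ipo9 promoters the same CCAAT and ETS words. A match is a description of letters and not a binding site.

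CPEB proteins bind U-rich cytoplasmic polyadenylation elements in 3′ UTRs, so the letters TTTTAT and TTTTAAT were counted in 1 annotated 3′ UTR per gene, on the strand of the transcript. At least 1 was present in 41 of 53 members (77.4%), beside 62.4% of 10449 genes past the filter with an annotated 3′ UTR. The density was 1.84 per kb in the members and 1.34 per kb in those genes. It was 1.89 per kb in the members at least 2-fold higher and 1.82 per kb in those within 2-fold, a contrast that was not tested. Each of these densities pools all matches over all bases of its set, so long 3′ UTRs weigh most. Windows around the last match before the 3′ UTR end are shown for the members with the 2 highest ratios, for Ran and for the lowest, Kpna6. The element is in capitals. Counted back from that end, it begins at base 1174 in Nup210, 134 in Nup205, 1470 in Ran and 239 in Kpna6.
Nup210: aagcaagggaTTTTAATttgtttgctt
Nup205: accacctcttTTTTATagatgacttt
Ran: agaagtctagTTTTATaggcaactgt
Kpna6: attcatttgcTTTTATttttctaaga
Among importin alpha genes, Kpna2 had the shortest 3′ UTR, 258 bases with 0 elements. Kpna3, Kpna6, Kpna1 and Kpna4 had 2420, 4012, 3223 and 6940 bases with 4, 4, 6 and 14 elements. Over the 53 members, 3′ UTR length and log2 ratio had a Pearson correlation of -0.32 (Spearman -0.35), and element density and log2 ratio 0.08 (Spearman -0.07). These are descriptions over genes that share both libraries and 1 annotated transcript each.

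Neighbouring genes of the same route, from lists made by function, are given beside the members. Of 4 pore proteins outside the symbol rule 0 were 2-fold higher or lower, beside 14.6% and 11.8% of all genes, with a median of -0.04. Ahctf1 (ELYS), which seeds pores on chromatin, was at 0.77, and the cytoplasmic filament gene Nupl2 at 0.04. The mRNA export factor gene Gle1 was at -0.12. Sec13, a Y complex subunit that is also part of the COPII vesicle coat, was lowest at -0.59, from 9431 and 11076 counts. Of 6 Ran cofactors and relatives 3 were at least 2-fold higher (50%, beside 14.6% of all genes), with a median of 0.99. Rcc2, an RCC1-like mitotic regulator, was highest at 2.38 (14876 and 136924 counts), then Rangrf at 1.57. Ranbp3 (0.52) and the importin 5 relative Ranbp6 (0.19) were lowest.

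The mRNA export list had 27 rows past the filter, with a median of 0.55. Of these 4 were at least 2-fold higher (14.8%, near the 14.6% of all genes) and 1 lower, beside 11.8%. Nxt1 and Nxt2, cofactors of the bulk mRNA exporter Nxf1, were highest at 1.5 and 1.44, and Nxf1 itself was at 0.55. The lowest were 1 of 2 identifiers with the symbol Zc3h11a (765 and 670 counts, -1.01) and the helicase gene Ddx19b (0.00). Lamina and nuclear envelope genes spread more widely, with a median of 0.43. At least 2-fold higher were 6 of 19 (31.6%, beside 14.6% of all genes), and 1 was lower, beside 11.8%. The B-type lamin gene Lmnb1 had 665 counts (9.08 CPM) and 25994 counts (200.9 CPM), a ratio of 4.47, above that of any pore gene. Nemp1, an inner membrane protein gene, followed at 2.50. Lmna, the A-type lamin gene, had 126119 and 224124 counts, or 1722 and 1732 CPM, a ratio of 0.01. The linker genes Syne1 and Sun2, which tie the nucleus to the cytoskeleton, were lowest at -1.87 and -0.83. The SUMO list, whose pathway modifies RanGAP1, had a median of 0.51. At least 2-fold higher were 4 of 16 (25%, beside 14.6% of all genes), and 0 were lower, beside 11.8%. Sumo2 (1.79) and the protease gene Senp1 (1.60) were highest, and Pias4 (-0.38) and Sumo3 (-0.13) lowest.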

How the data were processed

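RNA was sequenced from 1 library of control shRNA and 1 of Cpeb4 shRNA RAW264.7 cells. The deposited values are whole-number read counts per gene. Reads were aligned with HISAT2 to mm10, per the submitters' processing notes. No source used here gives the HISAT2 version, the counting tool, its annotation or its strand setting. Every gene in the table has at least 1 count in both libraries, so genes absent from either are not analysed here, nor are Nup58 and Nup62cl.

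Counts were scaled with TMM in edgeR 4.0.16 (R 4.3.3; factors 0.922 and 1.08), and genes averaging 1 CPM or more were kept. Intervals are exact Clopper-Pearson intervals at 95% of a gene's share of both counts. They cover the counting error of reads only. Any PCR copies among the reads, which are not separate molecules, make them too narrow. The Cpeb4 shRNA library was 1.5 times as deep, and 3 counts correspond to 0.041 and 0.0232 CPM. A size rule of 2-fold took the place of a test. The members and gene lists were chosen with earlier results of these data known. Every member is named, and of each neighbouring list the 2 highest and 2 lowest, with Lmna and Nxf1 added after their values were seen. Coordinates, transcript lengths and 3′ UTRs came from GENCODE M21 (GRCm38, the assembly of mm10), which held 18935 of 18987 identifiers and all 54 members, of which 35 overlap another annotated gene. Not every such overlap is named above, for example Nsun5 on the other strand of Pom121 (868 and 3020 counts). Promoters came from RefSeq (GRCm38.p6), with 43 of 54 members found. Alternatives were total-count, upper-quartile, DESeq2 1.42.0 and reference-gene scaling (20 genes), thinning, other filters and thresholds, and other motif windows. The computations were run on simulated Poisson counts with the same scaling and no spread beyond counting. That run checks the arithmetic and cannot show the error of these libraries.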

Additional observations from a re-analysis of the deposited data

How the results depend on the processing

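No paired analysis was possible because neither group held replicate libraries. Total-count scaling shifts every log2 ratio by 0.23 and reference-gene scaling by -0.11. Against the main values, the median of the members (0.75) was 0.99 and 0.64 under these, and Cpeb4 (-1.73) was at -1.49 and -1.83, and at -1.76 with upper-quartile scaling. Among genes past 2-fold, 55.4% were higher with TMM, 71.0% with total-count scaling and 47.2% with reference-gene scaling. Members at least 2-fold higher numbered 18 to 25 under every other scaling, thinning, both filters and the interval rule. These were 35.3 to 47.2% of members, beside 11.6 to 20.8% of all genes. Both shares were lowest with the filter of 10 CPM and highest with total-count scaling. Higher members numbered 34 at 1.5-fold (beside 26.4% of all genes) and 1 at 4-fold (beside 4.82%). Members at least 2-fold lower numbered 0 under each of these settings. All genes higher and lower numbered 3217 and 2930 unfiltered, 1025 and 907 where the mean was 10 CPM or more, 3191 and 2674 at 1.5-fold while 582 and 426 were past 4-fold, changes that follow from how each filter and threshold is built. Of the 53 members, 1 was below 0 with total-count scaling (Kpna6) and 5 with upper-quartile or reference-gene scaling (Kpna1, Kpna4, Kpna6, Tnpo1 and Xpot). Shares within a library do not change with scaling. Elements spelled TTTTAT alone were in 71.7% of members, beside 57% of genes past the filter with an annotated 3′ UTR. NRF1 words were in 8.16% of member promoters over the 200 bases nearest the start, beside 1.96% of promoters of genes past the filter. In that window CHR words were in 20.4% (beside 6.94%), E-boxes in 14.3% (7.97%) and CCAAT boxes in 42.9% (30.9%). ETS words were in 26.5% (25.4%) and E2F words in 4.08% (3.03%).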
